A study of Mus musculus with 18 samples.

Results

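The genes described here are those of pancreatic acinar digestive enzymes, together with granule proteins, inhibitors and transcription factors of the acinar cell, as measured in preparations of isolated mouse islets. All 34 listed genes had a transcript cluster of their own on the array, among 22180 genes with such a cluster, and for a gene with several clusters the one of highest mean was used. Of the 34, 33 passed the filter on dim genes and were tested, and the trypsin gene Try5 did not. The islets came from diabetes-prone C57BL/KsJ db/db mice, from diabetes-resistant C57BL/6J ob/ob mice and from age-matched lean mice of each strain, at 6 and 16 weeks of age. The db/db mice lack the long leptin receptor and the ob/ob mice lack leptin. The 8 groups held 2 Affymetrix arrays each in a larger table of 16 arrays. A smaller table from a related array design held 1 more lean KsJ and 1 more db/db array of 16 weeks, called replicate 3. All mice came from the breeding colonies of 1 institute, and the islets were picked by hand. Nothing in the labels states if a group's arrays stand for different animals or for pooled islets, so p-values measure only the spread between these samples. The labels give the lean mice as controls of each strain without their genotype at the leptin or leptin receptor gene. KsJ and 6J arrays also bear different codes in their titles, and what the codes mark cannot be told apart from strain.

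Acinar cells make up most of the pancreas around the islets and store digestive enzymes as inactive zymogens in granules, which they release into the ducts. Trypsin starts the activation of the other proteases in the gut, and Spink1 and chymotrypsin C guard against its early activity. Transcription of these genes rests on the PTF1 complex, in which Ptf1a and Rbpjl join an E protein at paired E-box and TC-box sequences, and on Nr5a2 and Bhlha15 (Mist1). Beta and alpha cells do not make these enzymes in quantity, and preparations of isolated islets can carry acinar tissue along. In bulk RNA, fewer cells of a type and less RNA per cell cannot be told apart.

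Promoter sequences are shown for 4 members because the members moved together across arrays and because these 4 hold the E-box, the TC box and the TATA box. Cel and 1 of the 2 Nr5a2 entries hold the E-box and the TC box without the TATA box and are not shown. They are RefSeq sequences of GRCm38.p6, from 250 bases before to 50 bases after the start of the gene, read 5′ to 3′ on the gene's strand. Capitals mark the E-box CACCTG, the TC box TTTCCC, the NR5A2-type site AAGGTCA and the TATA box TATAAA, each searched on both strands. Cela1, the elastase 1 gene (chr15:100687871-100688170, minus strand), is given first, then the trypsinogen genes Prss1 (chr6:41458680-41458979, plus strand) and Prss2 (chr6:41521526-41521825, plus strand), then the pancreatic amylase gene Amy2b (chr3:113156678-113156977, minus strand).
Cela1: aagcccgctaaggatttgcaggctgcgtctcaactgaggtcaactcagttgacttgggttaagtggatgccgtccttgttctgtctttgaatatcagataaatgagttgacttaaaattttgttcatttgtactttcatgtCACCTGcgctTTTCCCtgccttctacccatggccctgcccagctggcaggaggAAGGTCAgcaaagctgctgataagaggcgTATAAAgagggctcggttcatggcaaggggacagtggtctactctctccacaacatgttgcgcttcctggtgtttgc
Prss1: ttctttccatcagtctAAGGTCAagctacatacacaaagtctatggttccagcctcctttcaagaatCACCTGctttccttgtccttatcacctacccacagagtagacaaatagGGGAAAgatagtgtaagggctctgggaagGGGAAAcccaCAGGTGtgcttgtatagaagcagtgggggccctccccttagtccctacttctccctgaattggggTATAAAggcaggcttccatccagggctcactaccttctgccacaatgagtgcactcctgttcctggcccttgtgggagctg
Prss2: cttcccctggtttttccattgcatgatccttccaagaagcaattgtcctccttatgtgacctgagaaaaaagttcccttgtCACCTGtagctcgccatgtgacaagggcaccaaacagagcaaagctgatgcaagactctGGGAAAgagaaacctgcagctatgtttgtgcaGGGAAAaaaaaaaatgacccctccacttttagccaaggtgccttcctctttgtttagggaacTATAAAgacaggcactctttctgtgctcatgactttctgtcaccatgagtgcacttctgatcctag
Amy2b: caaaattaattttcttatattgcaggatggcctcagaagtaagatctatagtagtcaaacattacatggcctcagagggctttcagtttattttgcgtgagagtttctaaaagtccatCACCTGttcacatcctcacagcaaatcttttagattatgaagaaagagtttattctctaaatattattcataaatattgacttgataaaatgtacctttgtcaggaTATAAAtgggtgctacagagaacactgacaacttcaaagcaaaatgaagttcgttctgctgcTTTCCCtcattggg
In Cela1 the E-box began 109 bases and the TC box 99 bases before the start, on the same strand, followed by the NR5A2-type site at 56 and the TATA box at 27 bases before it. In Prss1 a reverse TC box at 106 and a reverse E-box at 96 bases before the start lay next to each other. A global alignment of the Prss1 and Prss2 sequences held 67.3% identical bases at the positions aligned without a gap. In Amy2b the E-box began 132 bases before the start, and its only TC box lay after the start. Of the 34 members, 26 had a promoter in the RefSeq table, with 28 entries. The E-box was present in 57.1% of these entries and in 20.2% of all 32851 entries, the TC box in 32.1% and 25.2%, the NR5A2-type site in 14.3% and 4.72%, and the TATA box in 39.3% and 13.6%. Both the E-box and the TC box were present in 21.4% of the members' entries and in 4.86% of all. These are matches of letters, not measured binding.

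The median log2 signal of an array was 3.51 to 3.83 in the larger table, whose brightest value was 13.61. Ins2, the insulin gene with its own cluster, stood between 11.60 and 12.20 on the 16 arrays, and the mean of 6 beta-cell markers lay between 10.90 and 11.69, lowest on lean KsJ 16-week replicate 2. Its values in the smaller table were 10.38 on the lean and 10.27 on the db/db array. Markers of the gut stood out on a few arrays. The mean of 9 enterocyte markers was 10.58 on lean 6J 6-week replicate 2, 9.23 and 6.79 on db/db 16-week replicates 2 and 1, 6.24 on lean KsJ 16-week replicate 2, and between 4.42 and 5.62 on the other 12 arrays of the larger table. Lean KsJ 16-week replicate 2, lean 6J 6-week replicate 2 and db/db 16-week replicate 2 were doubted after seeing the data. The db/db 16-week replicate 1 was not among them. Several results on members are given with and without some or all of these arrays, where such a fit was run. The other array in question, lean KsJ 16-week replicate 1, is named wherever it decides a count.

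The acinar genes varied widely and together from array to array. Over the 16 arrays the range of a member, highest minus lowest log2 value, ran from 2.03 (Prss3) to 9.22 (Amy2b) with a median of 5.42, and exceeded 5 for 21 of the 34 members. The highest value lay on lean KsJ 16-week replicate 2 for 33 members, and on ob/ob 16-week replicate 1 for Prss3. The lowest value lay on lean 6J 6-week replicate 2 for 24 members. An index of acinar content was formed as the mean log2 value of 6 acinar genes outside the list that had clusters of their own, Aqp12, Aqp8, Tmed11, Cckar, Gnmt and Slc30a2. Of these, Aqp8 lay between 2.93 and 3.5 on 15 arrays, below each array's median signal of 3.51 or more, and reached 6.07 on lean KsJ 16-week replicate 2. Slc30a2 was higher on lean 6J 6-week replicate 2, the array with the high enterocyte mean, than on replicate 1 (5.98 and 2.85), whereas most members were lower there. In lean KsJ islets of 16 weeks the acinar index was 4.75 on replicate 1 and 9.32 on replicate 2. It was 6.19 on db/db 16-week replicate 2, and between 3.92 and 5.27 on the remaining arrays. In the smaller table it was 8.50 on the lean and 6.51 on the db/db array.

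**Figure D1:**
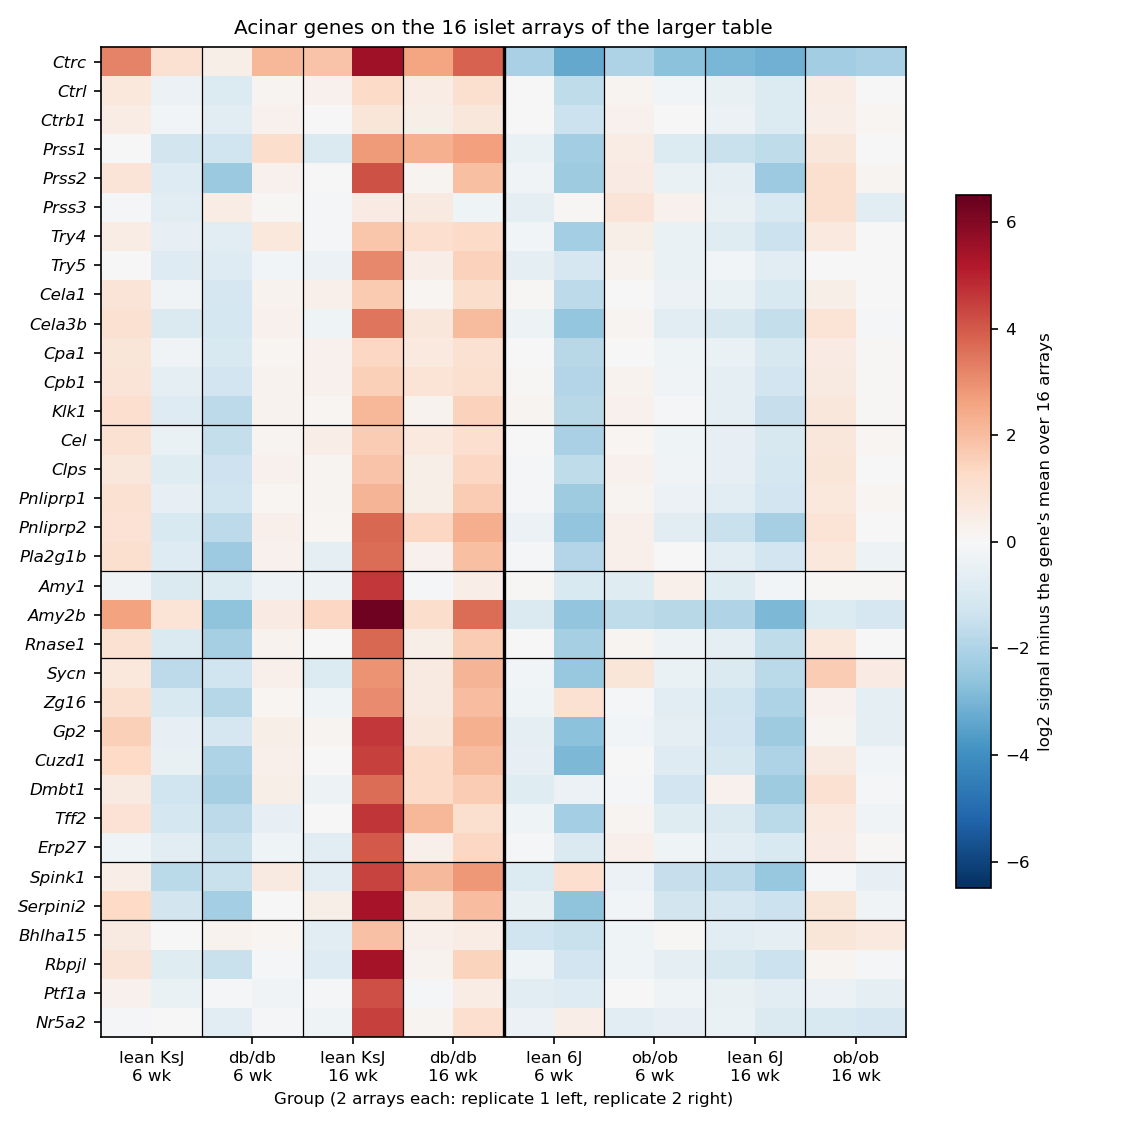
Each row is 1 of the 34 acinar genes, in the order proteases, lipid-digesting enzymes, amylases with ribonuclease, granule and secretory proteins, inhibitors and transcription factors; each column is 1 of the 16 arrays of the larger table. Colour gives the log2 signal minus the gene's mean over the 16 arrays, from -6.5 (blue) to 6.5 (red). Whole columns shift together, lean KsJ 16-week replicate 2 is the reddest, and Ctrc is red on every KsJ array and blue on every 6J array.

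The members also moved together between the arrays of 1 group, where genotype and age were the same. Taking in each group the array with the higher acinar index, 34 of 34 members were higher there in lean KsJ islets of 16 weeks, by a median of 3.73, and 33 of 34 in lean KsJ islets of 6 weeks, by 1.58. The counts were 31 of 34 in db/db islets of 6 weeks (median 1.5), 32 in db/db islets of 16 weeks (0.99), 29 in lean 6J islets of 6 weeks (1.79), 32 in lean 6J islets of 16 weeks (0.55), 31 in ob/ob islets of 6 weeks (0.53) and 33 in ob/ob islets of 16 weeks (0.61). Among the tested genes that are no members, between 44.6% and 61.9% were higher on the same array, with medians between -0.09 and 0.09. The index and the members share the array, its RNA and its normalization.

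A few members went against the rest within a group. In lean 6J islets of 6 weeks, Spink1, Zg16, Dmbt1, Nr5a2 and Prss3 were higher on replicate 2, the array with the high enterocyte mean, where the other 29 members were lower. Spink1 stood at 6.80 and 8.79 on replicates 1 and 2, Zg16 at 9.45 and 10.74, Dmbt1 at 7.87 and 8.25 and Nr5a2 at 4.56 and 5.41. The means of the 6 goblet markers on these arrays were 3.34 and 8.06. Goblet cells of the gut also make Zg16, and Dmbt1, Spink1 and Nr5a2 are known from gut epithelium. The part of the gut markers in these 4 values was not tested. In db/db islets of 16 weeks Tff2, a trefoil peptide of stomach and Brunner glands as well as pancreas, stood at 10 and 8.86, against the direction of 32 other members. The mucin gene Muc6 of gastric and Brunner glands was at 9.12 and 3.18 there, and its part was not tested.

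Among the proteases, the chymotrypsin C gene Ctrc ranged from 8.09 through a median of 10.06 to 13.20 in KsJ and from 4.38 through 5.25 to 5.70 in 6J, so that the strains did not overlap. Ctrl, a chymotrypsin-like protease, ranged from 11.38 through a median of 12.64 to 13.50 in KsJ and from 10.62 through 12.17 to 12.75 in 6J. Ctrb1, which encodes chymotrypsinogen B, ranged from 12.08 through a median of 13.15 to 13.61 in KsJ and from 11.39 through 12.81 to 13.23 in 6J. For the trypsinogen gene Prss1 the values ran from 6.63 through a median of 8.49 to 10.69 in KsJ and from 5.66 through 7.29 to 8.67 in 6J. Prss2, a second trypsinogen gene, ran from 5.74 through a median of 8.37 to 12.29 in KsJ and from 5.76 through 7.81 to 9.17 in 6J. The trypsin genes are related copies whose probes may share transcripts, so their separate values are uncertain. Try4 ran from 9.99 through a median of 11.27 to 12.48 in KsJ and from 8.45 through 10.35 to 11.32 in 6J. Prss3 stayed low, from 2.56 through a median of 3.24 to 3.80 in KsJ and from 2.26 through 3.03 to 4.29 in 6J. Try5, below the filter, ran from 1.80 through a median of 2.57 to 5.76 in KsJ and from 1.55 through 2.36 to 2.88 in 6J. The elastase genes Cela1 and Cela3b ran from 10.59 through a median of 11.96 to 13.38 in KsJ and from 9.96 through 11.46 to 12.02 in 6J, and from 8.43 through a median of 10.07 to 13.04 in KsJ and from 7.05 through 9.04 to 10.45 in 6J. The carboxypeptidase genes are Cpa1, for carboxypeptidase A1, and Cpb1, for carboxypeptidase B1. Cpa1 ran from 11.14 through a median of 12.58 to 13.45 in KsJ and from 10.31 through 12 to 12.66 in 6J. Cpb1 ran from 10.49 through a median of 12.29 to 13.30 in KsJ and from 9.83 through 11.66 to 12.33 in 6J. The tissue kallikrein gene Klk1 ran from 9.40 through a median of 11.31 to 13.26 in KsJ and from 9.30 through 11.09 to 11.85 in 6J. In every protease but Ctrc the strains overlapped.

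Of the lipid-digesting enzymes, Cel, the bile salt-dependent lipase gene, ran from 10.15 through a median of 12.25 to 13.35 in KsJ and from 9.63 through 11.57 to 12.43 in 6J. Clps encodes colipase, the cofactor of pancreatic lipase, and ran from 9.97 through a median of 11.65 to 13.18 in KsJ and from 9.65 through 11.16 to 12.10 in 6J. The lipase-related genes Pnliprp1 and Pnliprp2 ran from 9.73 through a median of 11.34 to 13.26 in KsJ and from 8.71 through 10.82 to 11.75 in 6J, and from 7.71 through a median of 10.07 to 13.14 in KsJ and from 6.86 through 8.87 to 10.31 in 6J. Pla2g1b, the pancreatic phospholipase A2 gene, ran from 6.16 through a median of 8.77 to 12.12 in KsJ and from 6.59 through 8.28 to 9.20 in 6J. All 5 had their highest array in lean KsJ islets and overlapped between strains. Amy1, the amylase of salivary gland and liver, ran from 3.15 through a median of 3.84 to 8.68 in KsJ and from 3.12 through 4.05 to 4.42 in 6J. Its range without lean KsJ 16-week replicate 2 was narrow, since every other array of the larger table lay at or below 4.54. Amy2b, a pancreatic amylase, ran from 3.29 through a median of 7.13 to 12.21 in KsJ and from 2.99 through 4.17 to 4.99 in 6J. The ribonuclease gene Rnase1 ran from 7.18 through a median of 9.65 to 13.06 in KsJ and from 7.14 through 9.12 to 10.01 in 6J.

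Of the granule and secretory proteins, Sycn, which encodes syncollin of the zymogen granule, ran from 8.50 through a median of 10.68 to 13.16 in KsJ and from 7.77 through 9.90 to 11.88 in 6J. Zg16, a granule lectin, ran from 7.91 through a median of 10.09 to 12.79 in KsJ and from 7.76 through 9.29 to 10.74 in 6J. Gp2, the major glycoprotein of the granule membrane, ran from 7.09 through a median of 8.78 to 12.80 in KsJ and from 5.52 through 7.57 to 8.39 in 6J. Cuzd1, a zymogen granule membrane protein, ran from 6.14 through a median of 8.92 to 12.60 in KsJ and from 5.25 through 7.46 to 8.74 in 6J. Dmbt1, a mucosal scavenger receptor protein, ran from 6.47 through a median of 9.11 to 12.28 in KsJ and from 6.31 through 8.39 to 9.61 in 6J. Tff2 ran from 6.13 through a median of 8.31 to 12.45 in KsJ and from 5.62 through 7.30 to 8.44 in 6J. Erp27, a protein of the endoplasmic reticulum, ran from 3.68 through a median of 4.86 to 9.12 in KsJ and from 4.12 through 4.93 to 5.69 in 6J. The inhibitors were Spink1, the secreted trypsin inhibitor, and the serpin Serpini2. Spink1 ran from 5.95 through a median of 8.17 to 12.08 in KsJ and from 5.22 through 6.96 to 8.79 in 6J. Serpini2 ran from 4.79 through a median of 7.56 to 12.38 in KsJ and from 4.40 through 6.20 to 7.81 in 6J. All 9 overlapped between strains.

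Of the 4 transcription factor genes, Rbpjl, Ptf1a and Nr5a2 had low signals on most arrays and their highest on lean KsJ 16-week replicate 2. Rbpjl, the acinar subunit of PTF1, stood at 3.92 and 10.16 on lean KsJ 16-week replicates 1 and 2, 4.97 and 6.21 in db/db islets of 16 weeks, and between 3.31 and 5.59 in the other 6 groups. Ptf1a had 3.96 and 8.24 in that lean pair and lay at or below 4.58 on the other 14 arrays of the larger table. Nr5a2 stood at 4.66 and 9.40 in the same pair and at or below 6.04 on those 14 arrays. Bhlha15, which shapes the secretory apparatus, kept a narrower range of 3.37. In the smaller table the lean array held Rbpjl at 9.22, Ptf1a at 7.21 and Nr5a2 at 8.08, against 7.05, 4.23 and 6.58 on the db/db array.

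The chymotrypsin C gene Ctrc separated the strains. On replicates 1 and 2 its values at 6 weeks were 10.93 and 8.70 in lean KsJ and 8.09 and 9.86 in db/db islets, and at 16 weeks 9.53 and 13.20 in lean KsJ and 10.27 and 11.54 in db/db islets. On the 6J background it stood at 5.57 and 4.38 in lean and 5.70 and 5.04 in ob/ob islets of 6 weeks, and at 4.73 and 4.55 and 5.46 and 5.60 at 16 weeks. All 8 KsJ arrays lay above all 8 6J arrays, which held for no other member, and for 0.271% of the genes tested. The KsJ minus 6J difference was 5.14 ± 0.53 (log2, SE, 8 arrays a strain), a 35.2-fold difference of signal, with an adjusted p of 0.000318 (limma). Between lean islets alone it was 5.78 ± 0.76, with an adjusted p of 0.00303 (limma, 4 arrays a strain). The call was kept in all 28 alternatives of each comparison, with values from 4.18 to 5.60 over all groups and from 4.16 to 6.70 in lean islets, and adjusted p-values (limma) of at most 0.00174 and 0.0190.

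Amy2b came next. At 6 weeks it was 8.51 and 6.77 in lean KsJ and 3.29 and 6.42 in db/db islets, and at 16 weeks 7.24 and 12.21 and 7.02 and 9.55. The 6J values were 4.96 and 3.35 and 4.25 and 4.09 at 6 weeks, lean then ob/ob, and 3.93 and 2.99 and 4.99 and 4.79 at 16 weeks. A single KsJ array, db/db 6-week replicate 1, lay among the 6J arrays, and the other 7 lay above all of them. The strain difference was 3.46 ± 0.73 over all groups (11-fold, adjusted p 0.0262, limma) and 4.88 ± 1.04 in lean islets (adjusted p 0.0379, limma). The call over all groups was kept in 19 of 28 alternatives, where the adjusted p ran from 0.00168 to 0.0720, and the call in lean islets in 13 of 28, from 0.00148 to 0.142. The amylase genes are copies of each other, so signal from a copy cannot be told apart from that of Amy2b.

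**Figure D2:**
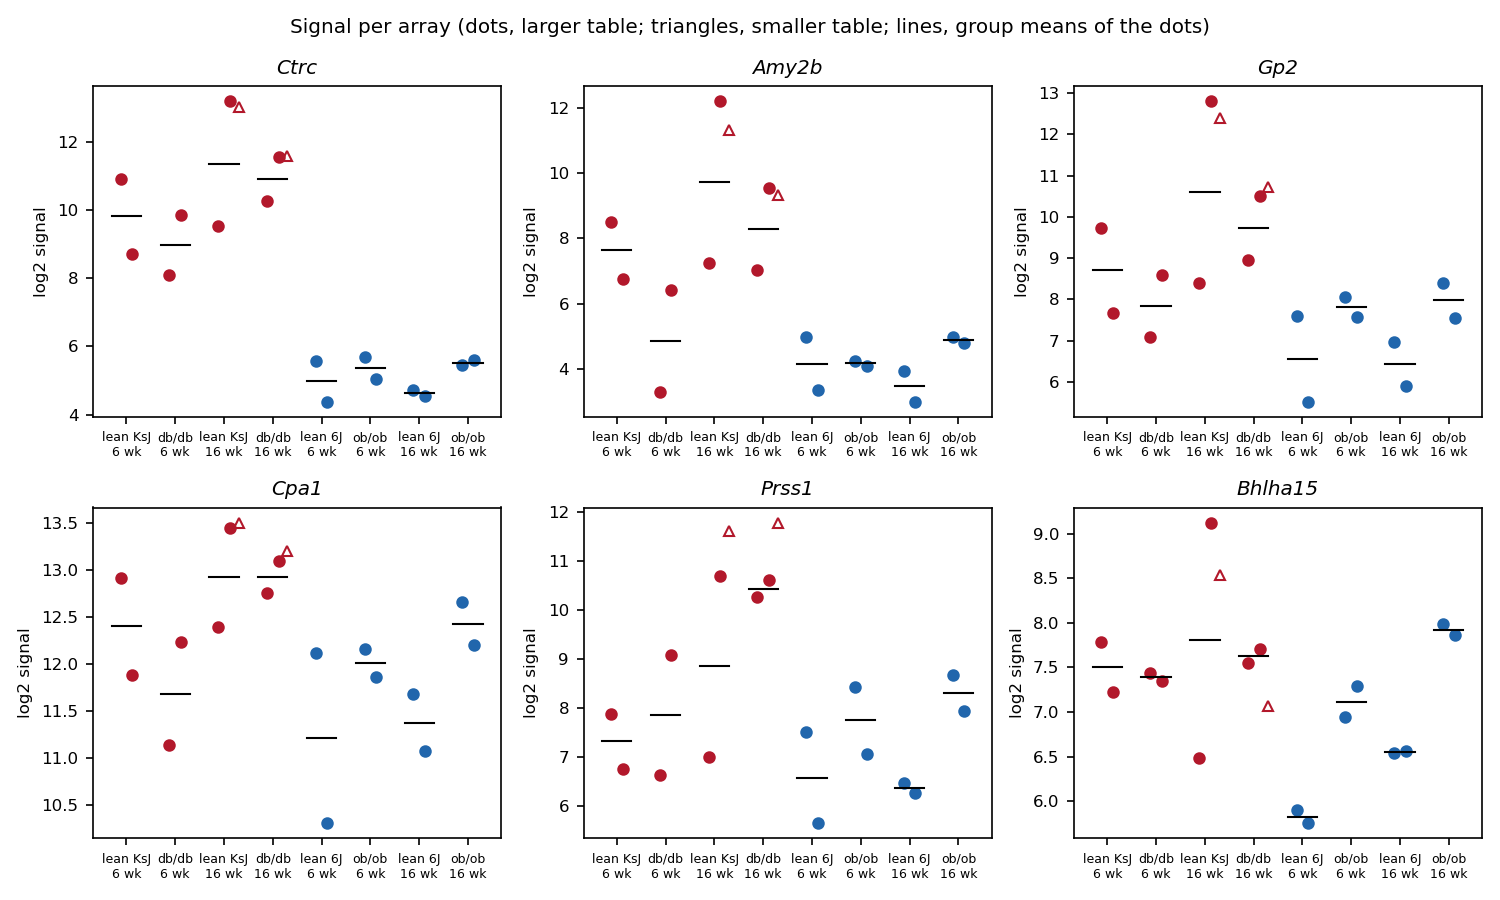
Log2 signal of Ctrc, Amy2b, Gp2, Cpa1, Prss1 and Bhlha15 by group, with KsJ groups in red and 6J groups in blue; dots are the 2 arrays of a group in the larger table, lines their mean, and open triangles the 2 arrays of the smaller table. Ctrc has 2 separate bands by strain, whereas the other 5 overlap between strains.

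All 33 tested members had a positive KsJ minus 6J difference, but only these 2 passed the test. Over all groups the members' median difference was 0.93 against -0.05 over all 15526 genes tested, 2 of 33 members were called, and 3.82% of all genes were. In lean islets the median was 1.59 against -0.11, 2 of 33 members were called, and 2.25% of all genes were. At an unadjusted p below 0.05 (limma) there were 14 members over all groups and 22 in lean islets. Gp2 had the third largest difference, 2.03 ± 0.63 (adjusted p 0.11, limma), with values of 9.73 and 7.68, 7.09 and 8.59, 8.40 and 12.80 and 8.97 and 10.52 in the KsJ groups, lean and db/db of 6 weeks and then of 16 weeks. Its 6J values were 7.59 and 5.52, 8.06 and 7.58, 6.97 and 5.91 and 8.39 and 7.56 in the same order. The smallest differences were those of Prss3 (0.13 ± 0.26), Ctrb1 (0.46 ± 0.24) and Erp27 (0.53 ± 0.55), with adjusted p-values (limma) of 0.831, 0.338 and 0.637. The count of called members in lean islets was 32 without lean KsJ 16-week replicate 1, 6 without lean 6J 6-week replicate 1 and between 1 and 2 without any other single array. Over all groups it was 17 without lean KsJ 16-week replicate 1 and between 1 and 2 without any other single array. The members' median was 1.08 in lean islets and 0.56 over all groups without lean KsJ 16-week replicate 2, and 0.62 and 0.33 without the 3 doubted arrays (lean KsJ 16-week, lean 6J 6-week and db/db 16-week replicate 2). The acinar index itself was uneven between strains, from 4.16 to 9.32 in KsJ and from 3.92 to 4.91 in 6J, and none of its 6 genes passed the test by strain in either comparison (limma), the smallest adjusted p being that of Cckar, 0.147 in lean islets.

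Setting the arrays to an equal acinar index, as a covariate in the same fit, left the same 2 members called over all groups and lowered the members' median. Ctrc differed by 4.18 ± 0.28 (adjusted p 3.80e-05, limma) and Amy2b by 2.17 ± 0.40 (adjusted p 0.0166, limma). The members' median was 0.30 against 0.93 without the covariate, with 25 above and 8 below 0, and 2 of 33 were called against 3.54% of all genes. The median at equal index was 0.08 without lean KsJ 16-week replicate 2 and -0.06 without the 3 doubted arrays. With all arrays the largest difference below 0 was that of Erp27, -0.52 ± 0.14 (adjusted p 0.0824, limma). Gp2 stood at 0.91 ± 0.32 (adjusted p 0.17, limma), Cuzd1 at 0.63 ± 0.39 and the trypsinogen gene Prss2 at -0.08 ± 0.43. In lean islets at equal index Ctrc was the 1 member called (4.16 ± 0.41, adjusted p 0.00135, limma), and Amy2b differed by 2.68 ± 0.60 (adjusted p 0.0701, limma). Without lean KsJ 16-week replicate 1, whose group then holds 1 array and gives no slope, 0 members were called at equal index (limma, 7 at an unadjusted p below 0.05) and the median was -0.56, with Ctrc at 3.08 (adjusted p 0.0552) and Amy2b at 0.66 (adjusted p 0.780). Over the 27 alternatives the adjusted p of Ctrc ran from 9.10e-06 to 0.0552 and that of Amy2b from 0.00319 to 0.780.

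**Figure D3:**
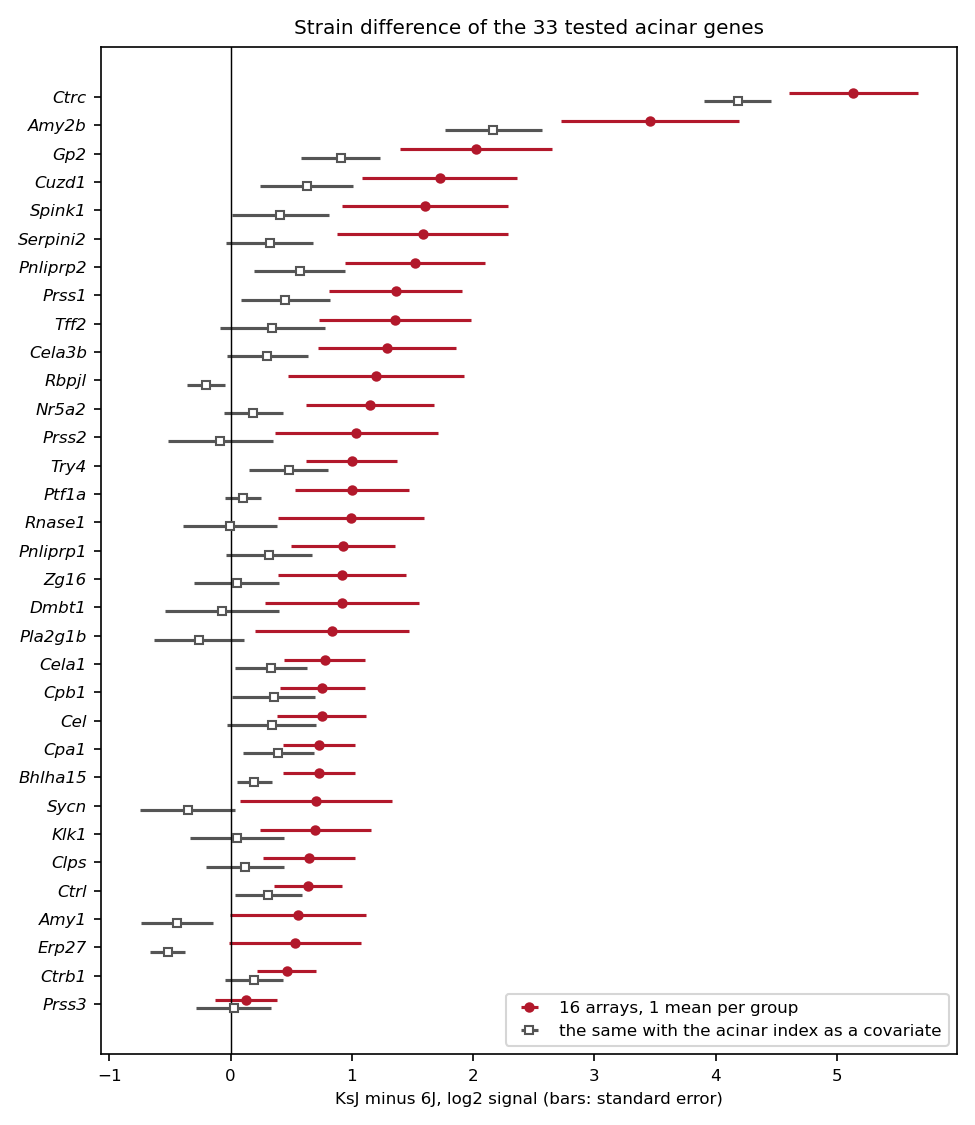
KsJ minus 6J difference in log2 signal of the 33 tested members, sorted; filled points come from 16 arrays with 1 mean per group, open squares from the same fit with the acinar index as a covariate, and bars are standard errors. Ctrc (5.14 and 4.18) and Amy2b (3.46 and 2.17) stand to the right, and most other members move toward 0 at equal index.

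Across arrays most pairs of members had a high correlation. Over the 528 pairs of tested members the median correlation was 0.84 on 16 arrays, 0.79 on the 15 arrays without lean KsJ 16-week replicate 2, 0.92 within the 8 KsJ arrays and 0.89 within the 8 6J arrays. The pairs ran from 0.13 to 0.99 on 16 arrays, 35.8% of them lay above 0.9 and 39 pairs below 0.5, and the first principal component held 82.9% of the members' variance. Without lean KsJ 16-week replicate 2 it held 76.3%. The closest pair on 16 arrays was Ctrl with Cpa1 (0.994), followed by Prss2 with Rnase1, Clps with Klk1, Cel with Cpa1 and Cpa1 with Cpb1, each at 0.990 or 0.991. The closest pair was Cel with Pnliprp1 in 6J islets (0.998) and Prss2 with Rnase1 in KsJ islets (0.996). Pairs below 0.5 numbered 88 on the 15 arrays, 32 within KsJ and 138 within 6J, where the lowest stood at -0.78. These correlations are descriptions, since the pairs share arrays and acinar content.

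The median correlation of a member with the other 32, on the 15 arrays, was lowest for Prss3 (0.24), Nr5a2 (0.26), Bhlha15 (0.56), Spink1 (0.57), Ctrc (0.59), Amy1 (0.60) and Zg16 (0.62). These fall apart in different ways. Ctrc followed the others within each strain, at 0.95 on the 8 KsJ arrays and 0.89 on the 8 6J arrays. Spink1 and Zg16 followed them in KsJ, at 0.90 and 0.96, and in 6J were near 0 for Spink1 and at 0.08 for Zg16 with lean 6J 6-week replicate 2 and both at 0.96 without it. Nr5a2 stood at 0.84 in KsJ and -0.63 in 6J, and at -0.16 in 6J without that array. Prss3 stood at 0.25 in KsJ and 0.47 in 6J, Bhlha15 at 0.74 and 0.67.

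Against the acinar index of genes outside the list, the members' correlations over 16 arrays had a median r of 0.83 and a median rho of 0.94, and a median r of 0.85 without the 2 arrays farthest from the median index, lean KsJ and db/db 16-week replicates 2. Two-sided permutation p-values were adjusted over all 15526 genes, and 1e-05 was the smallest that 100000 permutations could give. The permutations shuffled all 16 arrays freely, so differences between groups also enter these p-values. Rbpjl followed the index with r = 0.98 (permutation p 1.00e-05, adjusted 0.00457) and rho = 0.91 (permutation p 1.00e-05, adjusted 0.00485), and kept an r of 0.90 without the 2 arrays. Cela3b had r = 0.88 (permutation p 1.00e-05, adjusted 0.00457) and rho = 0.98 (permutation p 1.00e-05, adjusted 0.00485), with an r of 0.91 without them. For Nr5a2, r = 0.91 (permutation p 0.00216, adjusted 0.0433) and rho = 0.32 (permutation p 0.226, adjusted 0.527), and its r of 0.06 without the 2 arrays shows that the relation rests on them. The same was seen in Amy1, whose r of 0.92 became 0.33. Within strains the median r of the members with the index was 0.88 in KsJ and 0.83 in 6J.

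Within groups, members differed in how much signal they gained per unit of the index. In a fit with 1 mean per group and the index as a slope, 22 of 33 members rose with the index against 13.1% of all genes called, and no member had a negative slope. Slopes (log2 per log2 unit of the index, limma) ran from 0.10 ± 0.15 for Prss3 to 1.35 ± 0.08 for Rbpjl (adjusted p 3.47e-05). The 4 transcription factors, the 7 granule and secretory proteins, both inhibitors, and the 3 amylases and ribonuclease passed the test, with Erp27 at 1.02 ± 0.07, Ptf1a at 0.86 ± 0.07, Serpini2 at 1.22 ± 0.18 and Amy2b at 1.25 ± 0.20. Of the 12 proteases 4 passed, Ctrc (0.92 ± 0.14), Prss1, Prss2 and Cela3b. Of the 5 lipid-digesting enzymes 2 passed, Pnliprp2 and Pla2g1b. Members that did not pass included Ctrb1 (0.26 ± 0.12), Ctrl (0.32 ± 0.13), Cpa1 (0.32 ± 0.14) and Cel (0.40 ± 0.18). Apart from Prss3, the members that did not pass stood between 12.48 and 13.61 on lean KsJ 16-week replicate 2, near the brightest value of the table, and those that passed between 8.24 and 13.20. The part of the array's upper range in these slopes was not tested. The calls rest on the lean KsJ 16-week pair, whose index was 9.32 and 4.75: without either of its arrays 0 members were called (limma; 28 at an unadjusted p below 0.05 in each case), 2 without the 3 arrays named above (lean KsJ 16-week, lean 6J 6-week and db/db 16-week replicate 2), and 3 with array weights. The members' median slope was 0.92 with all arrays, 1.29 without either array of that pair, and 1.94 without the 3 arrays. Without those 3, Ctrc stood at 2 ± 0.29 and Serpini2 at 2.53 ± 0.28, whereas Ptf1a stood at 0.45 ± 0.19 and Nr5a2 at 0.19 ± 0.24.

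**Figure D4:**
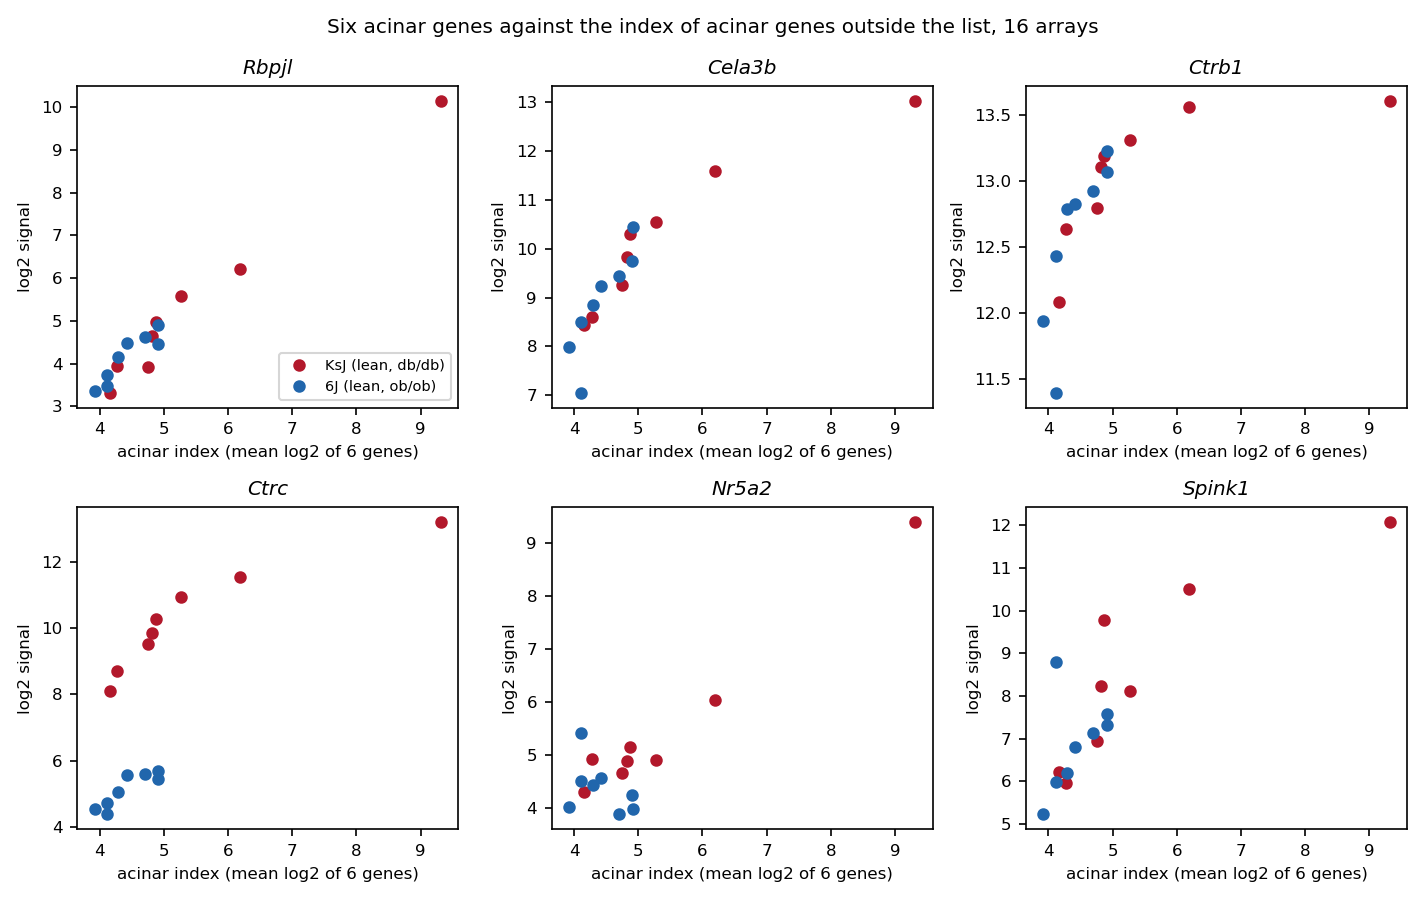
Log2 signal of Rbpjl, Cela3b, Ctrb1, Ctrc, Nr5a2 and Spink1 against the acinar index (mean log2 of 6 genes outside the list) on the 16 arrays, with KsJ arrays in red and 6J arrays in blue. Ctrc has 1 line for each strain, Nr5a2 is high on the 2 arrays of highest index, Ctrb1 levels off near 13.6, and a single 6J array lifts Spink1.

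By a rule of likeness, the 10 genes outside the list with the highest correlation with the members' mean over the 16 arrays were 2210010C04Rik (0.987), Cckar (0.976), Klk1b5 (0.968), Aqp12 (0.964), Slc38a3 (0.963), Gm5409 (0.960), 1810018F18Rik (0.950), Reg3d (0.944), Itih4 (0.914) and Tmed6 (0.909). Without lean KsJ 16-week replicate 2 these correlations ran from 0.811 (Tmed6) to 0.975 (2210010C04Rik). Genes related to members, whose probes can share signal with them, were not left out of the search. Cckar, the cholecystokinin receptor of acinar cells, and Aqp12, an acinar aquaporin, belong to the index. Cckar ranged from 3.26 on lean 6J 6-week replicate 2 to 11.75 on lean KsJ 16-week replicate 2.

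Of the genes of stimulated acinar secretion, 12 of 13 were tested, and 1 was called by strain over all groups against 3.82% of all genes. This was Vipr1, a receptor for vasoactive intestinal peptide, which was lower in KsJ by 0.67 ± 0.12 over all groups (adjusted p 0.0121, limma), and the list's median was -0.13. Vipr1 stood at 6.62 and 6.61 on lean KsJ 16-week replicates 1 and 2, whose index was 4.75 and 9.32, so it did not rise with the index there. If its strain difference lies in acinar cells was not tested. Cckar (2 ± 0.70, adjusted p 0.155, limma) and Rab27b (0.56 ± 0.21, adjusted p 0.188, limma) had positive differences that did not pass the test. Along the index, where 13.1% of all genes were called, 5 of 12 rose, namely Cckar, the muscarinic receptor gene Chrm1, the granule GTPase genes Rab3d and Rab27b, and the SNARE gene Vamp8. Cckar is part of the index, and the slopes of the other 4 were small, from 0.19 ± 0.05 for Vamp8 to 0.35 ± 0.06 for Rab27b. The syntaxin gene Stx3 (-0.18 ± 0.04) and the synaptotagmin gene Syt7 (-0.21 ± 0.06) fell with the index. These slopes, like that of Gata4 below, come from the fit whose member calls rest on the lean KsJ 16-week pair. They were not refitted without it. In the smaller table Rab3d was 8.44 on the lean and 8.65 on the db/db array, and Vamp8 6.82 and 6.95. Cckar, Chrm1 and Rab27b were higher on that lean array, whose index was 8.50 against 6.51. In the obesity and age comparisons 0 of 12 were called (limma), against 0% to 5.8% of all genes by obesity and 0.213% by age. Of 9 tested transcription partners of the acinar program, Onecut1 was the 1 called by strain over all groups (3.82% of all genes were), higher in KsJ by 1.46 ± 0.22 (adjusted p 0.00497, limma), and Gata4 the only one to rise with the index (0.86 ± 0.22, adjusted p 0.0297, limma). Gata4, which gut epithelium also expresses, stood at 9.12 on lean KsJ 16-week replicate 2 and 7.41 on lean 6J 6-week replicate 2, and at or below 6.32 on the other 14 arrays of the larger table, and at 6.86 and 5.74 on the lean and db/db arrays of the smaller one.

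No acinar gene passed the test between obese and lean islets at either age (limma). In db/db against lean KsJ islets of 6 weeks, 28 of 33 members lay below 0 with a median of -0.65 (all genes -0.02), 0 were called, and 0.0258% of all genes were. That median ran from -1.42 to 0.11 as each of the 4 arrays compared was left out. At 16 weeks 25 lay below 0 with a median of -0.20 (all genes 0.18), 0 were called, and 5.8% of all genes were. In both comparisons 0 members had an unadjusted p below 0.05. The 16-week median depended on 1 lean array, being 1.11 without lean KsJ 16-week replicate 2, and -1.93 with 9 members called without replicate 1. Without the 3 doubted arrays the db/db median at 16 weeks was 0.62. In ob/ob against lean 6J islets of 6 weeks, 29 of 33 members lay above 0 with a median of 0.89 (all genes 0.00), 0 were called, and 0% of all genes were. That median was 0.01 without lean 6J 6-week replicate 2, the array with the high enterocyte mean. At 16 weeks 32 lay above 0 with a median of 1.39 (all genes -0.03), 0 were called, and 0.0708% of all genes were. At an unadjusted p below 0.05 there were 0 members at 6 weeks and 1 at 16 weeks, Bhlha15. The acinar index at 16 weeks was 4.11 and 3.92 on the lean 6J arrays and 4.91 and 4.70 on the ob/ob arrays. At equal index the members' ob/ob median was 0.72 at 6 weeks and 0.80 at 16 weeks, with 0 called at either age (limma). That fit rests on the slope set by the lean KsJ 16-week pair.

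Bhlha15 (Mist1) stood at 6.54 and 6.57 in lean 6J and 7.98 and 7.87 in ob/ob islets of 16 weeks, and at 5.90 and 5.75 and 6.94 and 7.29 at 6 weeks. At both ages the ob/ob arrays lay above the lean ones. This was no trait of Bhlha15 alone. At 16 weeks the ob/ob arrays lay above the lean ones for most members, Ctrl, Cel and Sycn among them. At 6 weeks it also held for Prss3 and Ptf1a, and Pla2g1b and Try5 separated in this way at both ages. The share of all genes that separate in this way was not counted. The differences of Bhlha15 were 1.37 ± 0.59 at 16 weeks (adjusted p 0.279, limma) and 1.29 ± 0.59 at 6 weeks (adjusted p 0.791, limma). Its KsJ values were 7.79 and 7.22 in lean and 7.43 and 7.35 in db/db islets of 6 weeks, and 6.48 and 9.12 and 7.55 and 7.71 at 16 weeks. The 16-week ob/ob difference passed the test in 4 of 28 alternatives, namely with array weights, without either lean KsJ 16-week array and without the 3 doubted arrays, and the adjusted p (limma) ran from 0.00614 to 0.622.

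The obesity effect at 16 weeks, db/db minus ob/ob, was negative for 33 of 33 members with a median of -1.59 (all genes 0.25). By the test of this difference 0 members were called, 0 had an unadjusted p below 0.05 (limma), and 0.0129% of all genes were called. Without lean KsJ 16-week replicate 2 the median was -0.19, and without replicate 1 it was -3.64 with 12 members called. By age, 16 minus 6 weeks over all groups, 32 of 33 members lay above 0 with a median of 0.90 (all genes -0.07), 0 were called, 1 had an unadjusted p below 0.05 (limma), and 0.213% of all genes were called. The median by age was 0.41 without lean KsJ 16-week replicate 2 and 0.13 without the 3 doubted arrays, and 11 members were called without replicate 1.

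At equal acinar index 1 member passed the test between db/db and lean KsJ islets of 16 weeks, the trypsinogen gene Prss1. It stood at 7.02 and 10.69 in lean and 10.26 and 10.61 in db/db islets, a difference of 1.58 ± 1.10 (adjusted p 0.403, limma), which became 2.90 ± 0.69 at equal index (adjusted p 0.046, limma; 4.53% of all genes called). That fit rests on the slope set by the lean KsJ 16-week pair. Without the covariate the difference was -0.26 without lean KsJ 16-week replicate 1 and 3.42 without replicate 2, so its direction depends on which lean array is kept. Over the 28 alternatives the adjusted p (limma) ran from 0.0460, the value at equal index, to 0.875. Spink1 (2.37 ± 0.74, adjusted p 0.0906, limma) and Sycn (1.91 ± 0.73, adjusted p 0.148, limma) came next. At 6 weeks Prss1 stood at 7.89 and 6.77 in lean and 6.63 and 9.09 in db/db islets, and these groups overlapped.

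**Figure D5:**
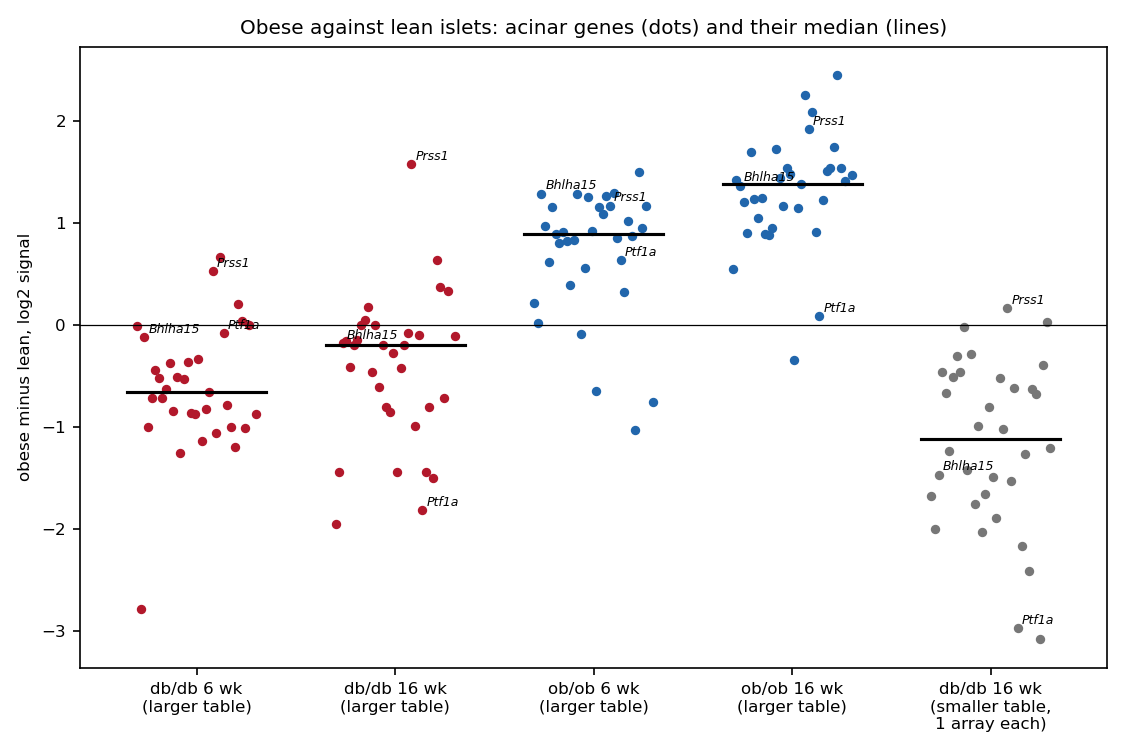
Obese minus lean difference in log2 signal of the 33 tested members (dots) and their median (line) for the 4 obesity comparisons of the larger table, and the difference of the 34 members between the single db/db and lean arrays of the smaller table (grey). Medians are -0.65, -0.20, 0.89 and 1.39 in the larger table and -1.12 in the smaller, where no test was possible.

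In the smaller table, with 1 array a group and no replicate check, 32 of 34 members were lower on the db/db than on the lean KsJ array of 16 weeks. Their median difference was -1.12, against 0.09 over the genes tested in the larger table, and ran from -3.09 (Tff2) to 0.17 (Prss1). Ctrc was at 13.02 on the lean and 11.59 on the db/db array, Amy2b at 11.33 and 9.32, and Cpa1 at 13.51 and 13.20. The acinar index was lower on the db/db array as well, and the enterocyte mean was 9.39 there against 4.65. The part of these differences in the members' values was not tested.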

How the data were processed

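RNA of isolated islets was hybridised to Affymetrix Mouse Gene ST arrays, 16 of which form a larger table and 2 a smaller one of a related design. The authors deposited log2 signals per transcript cluster. Per the submitters' processing notes MAS5, RMA and Partek were used, with no version, role or order. The background correction is not given in the sources used here, and separate normalization of the tables is possible, so tests stayed within the larger one. Of 41034 clusters, 23521 had 1 gene in the platform annotation, 1814 had several and 15699 had no row. Entrez IDs gave current symbols. Clusters of several genes were not used, also where Ctrc, Prss3 and Amy2b appear in them. The filter removed genes whose mean lay under the 30th percentile (2.99).

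With limma 3.58.1 (R 4.3.3), 1 mean per group and eBayes were fitted to the 16 arrays over 15526 genes. P-values were two-sided and Benjamini-Hochberg adjusted over all of them, and called means an adjusted p below 0.05. Fits at equal acinar index added the mean log2 of 6 acinar genes as a covariate. The index, secretion and transcription lists, the markers and the rule for named genes (all members, with array values for those called or at the extremes by strain, and 10 genes most like their mean) were chosen with earlier results of these data known. The code of the strain comparison over all groups was tested on simulated data with noise independent between genes. The fits with the index and the permutations were not tested so. The number of arrays limits the precision. Alternatives were other filters, normalizations, variance models, array weights, cluster means, joined tables, the index as a covariate and each array left out in turn. Leaving out 3 doubted arrays, and Xist or an enterocyte mean as a covariate, were added after seeing the data. Correlations used scipy 1.17.1 and figures matplotlib 3.10.9 in Python 3.11.15.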

Additional observations from a re-analysis of the deposited data

How the results depend on the processing

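Counts of called members moved most with single arrays. Leaving out 1 array at a time gave from 1 to 32 called members by strain in lean islets (2 with all arrays), from 1 to 17 by strain over all groups (2), from 0 to 9 in db/db islets of 16 weeks, from 0 to 1 in ob/ob islets of 16 weeks, from 0 to 12 for the difference of the obesity effects, from 0 to 11 by age, from 0 to 3 by strain at equal index (2) and from 0 to 27 for the slope (22). In db/db and ob/ob islets of 6 weeks 0 members were called in all 28 alternatives (limma). By strain in lean islets 1 member was called with a variance trend and robust variances together, with array weights, with the acinar index as a covariate, with the enterocyte mean as a covariate and without the 3 doubted arrays. The index as a covariate gave 1 call in db/db islets of 16 weeks. Array weights, and leaving out the 3 doubted arrays, gave 1 call each in ob/ob islets of 16 weeks. At equal index array weights gave 1 call by strain. For the slope, array weights gave 3 calls and leaving out the 3 doubted arrays 2. The causes were not tested. Leaving out an array leaves its group with 1, which is then assumed to vary like the others. The 3 doubted arrays, Xist and the enterocyte mean were chosen after seeing the data. No named result changed direction while called. No paired analysis was possible because the columns and labels carry no replicate numbers shared by the groups. With 2 arrays a group, differences smaller than the spread of acinar content between arrays were hard to detect in genes that follow it. P-values for genes near background or near the brightest signal rest on a narrow range.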

Other observations

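The trypsinogen genes Prss1 and Prss2 stood at a different distance on these lean KsJ and db/db arrays, a pair chosen after their values were seen and not tested. Prss1 minus Prss2 (log2, within an array) was -1.07 and -0.54 in lean KsJ islets of 6 weeks and -1.08 and -1.60 at 16 weeks, on replicates 1 and 2. In db/db islets it was 0.89 and 0.67 at 6 weeks and 1.94 and 0.53 at 16 weeks. All 4 db/db arrays of the larger table lay above all 4 lean KsJ arrays. How many other pairs of members separate in this way was not counted. The sign of a single value carries no meaning, since the probes of the genes differ in brightness, and only the shift between arrays can be read. In the smaller table the lean KsJ array had -0.48 and the db/db array 1.21. The 6J arrays had -0.42 and -0.16 in lean and -0.21 and -0.63 in ob/ob islets of 6 weeks, and -1.05 and 0.52 and -0.50 and -0.38 at 16 weeks. These genes are related copies, and probes of one may take up transcripts of the other.

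Marker lists of other cells gave, by strain over all groups, 1 higher and 1 lower call among 6 tested duct genes and 0 among 9 enterocyte, 6 goblet, 4 gastric, 6 beta-cell, 5 stellate and 4 macrophage genes (limma), where 3.82% of all genes were called. In lean islets by strain, 1 duct, 1 enterocyte, 1 stellate and 1 macrophage gene were lower in KsJ, where 2.25% of all genes were called. Between db/db and lean KsJ islets of 16 weeks, 1 duct, 1 enterocyte, 3 stellate and 2 macrophage genes were higher in db/db (limma), where 5.8% of all genes were called.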
